A study of Apera spica-venti with 7 samples.

Results

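Plant carriers that move sugars, amino acids and small peptides across membranes were counted in transcriptome assemblies of the weedy grass Apera spica-venti (loose silky bentgrass). A transcript was a member when the description of its best plant homologue, at an e-value (the number of matches of that quality expected by chance) of at most 0.1, held any of 10 word strings such as "sugar transport", "amino acid permease" or "peptide transporter" and did not hold "nitrate". Over the 7 single assemblies 375 of 251792 annotated transcripts were members, and the combined assembly held 112 of 66641. The members matched 87 UniProt proteins under 40 descriptions in the single assemblies, and 98 proteins under 45 descriptions once the combined assembly was added. No transcript that met the wording was barred by the word "nitrate".

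The plants came from herbicide-susceptible Danish populations mixed into 1 meta-population. Leaf, root and stem were taken from greenhouse plants at stem elongation (BBCH 34 to 36, on the decimal scale of plant growth stages), and were frozen. Germinated seeds were taken from petri dishes at BBCH 05 (radicle out of the seed), 07 (coleoptile out of the caryopsis), 08 (coleoptile elongating) and 09 (emergence), and were kept in a stabilising reagent, so preparation and the difference between organs and germinated seeds cannot be told apart. The paper set its limit for RNA integrity below the recommended one, because intact RNA was hard to obtain from germinated seeds. The part of RNA integrity in the counts and peptide lengths was not tested. Each condition had 1 library here, made from the RNA of several pooled individuals, and a germinated seed holds embryo organs and storage tissue together. The paper's methods also name further libraries for leaf and root, and no assembly of their own was among those used. The combined assembly was built from the merged reads of the individual libraries, so it does not stand apart from the others as independent evidence.

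Sucrose made in leaves is moved over long distances by proton-driven sucrose carriers (SUT or SUC) and by SWEET proteins, which let sugars pass down their gradient in either direction. Hexoses are taken up by sugar transport proteins (STP), and ERD6-like and monosaccharide-sensing carriers move monosaccharides across the vacuolar membrane. Amino acids cross membranes through permeases (AAP), cationic amino acid transporters (CAT) and relatives. Peptide transporters (PTR) take up di- and tripeptides with protons and share a family with nitrate transporters, oligopeptide transporters (OPT) carry somewhat longer peptides, and in germinating cereal grains peptide uptake by the scutellum is a known route for storage protein to reach the embryo.

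A count here is a number of assembled and merged contigs with a translated reading frame, not an expression level. With 1 library per condition there was no replicate spread and no test, and an exact two-sided permutation test of 3 organs against 4 seed stages could not give a p below 0.0571. Shares are therefore given as percent of annotated transcripts with a 95% Wilson interval, and ratios are the mean share over the 3 organs divided by the mean share over the 4 seed stages, with a 95% counting interval. These intervals cover counting error only.

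The carriers made up a similar part of every assembly, with the leaf on top. Members numbered 55 in leaf, 54 in root and 46 in stem, against 53, 54, 57 and 56 in germinated seeds at BBCH 05, 07, 08 and 09. As shares these were 0.194% (0.149 to 0.252) in leaf, 0.139% (0.107 to 0.181) in root and 0.157% (0.118 to 0.210) in stem. The seed stages held 0.146% (0.112 to 0.191), 0.135% (0.104 to 0.176), 0.149% (0.115 to 0.193) and 0.137% (0.105 to 0.178). Every interval overlapped every other, and root fell among the seed stages. The organs averaged 0.163% and the seed stages 0.142%, a ratio of 1.15 (0.937 to 1.42) whose interval held 1. Without the leaf the ratio was 1.05 (0.824 to 1.33).

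**Figure D1:**
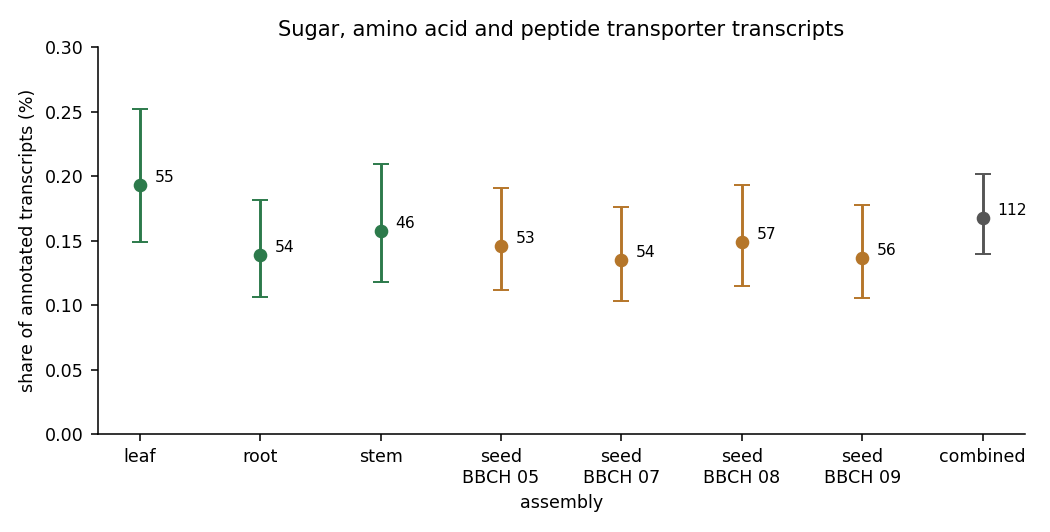
Share of annotated transcripts (y axis, percent) that were sugar, amino acid or peptide transporters in each assembly (x axis), with 95% Wilson intervals as bars and the number of members beside each point. Leaf sits highest at 0.194%, and all intervals overlap.

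Peptide carriers were the bulk of the members found by the words of the rule. PTR and OPT together gave 267 of the 375 members (71.2%), sugar carriers 61, amino acid carriers 29 and carriers of nucleotide sugars 18. Peptide carriers numbered 41 in leaf, 36 in root and 31 in stem, against 36, 38, 39 and 46 over the seed stages, a ratio of 1.12 (0.875 to 1.43). Sugar carriers numbered 8 in leaf, 10 in root and 9 in stem, against 9, 7, 12 and 6 over the seed stages, a ratio of 1.28 (0.769 to 2.12). Amino acid carriers numbered 4 in leaf, 6 in root and 3 in stem, against 5, 6, 4 and 1 over the seed stages, a ratio of 1.27 (0.609 to 2.66). None of these broad cargoes separated organs from germinated seeds beyond counting error.

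**Figure D2:**
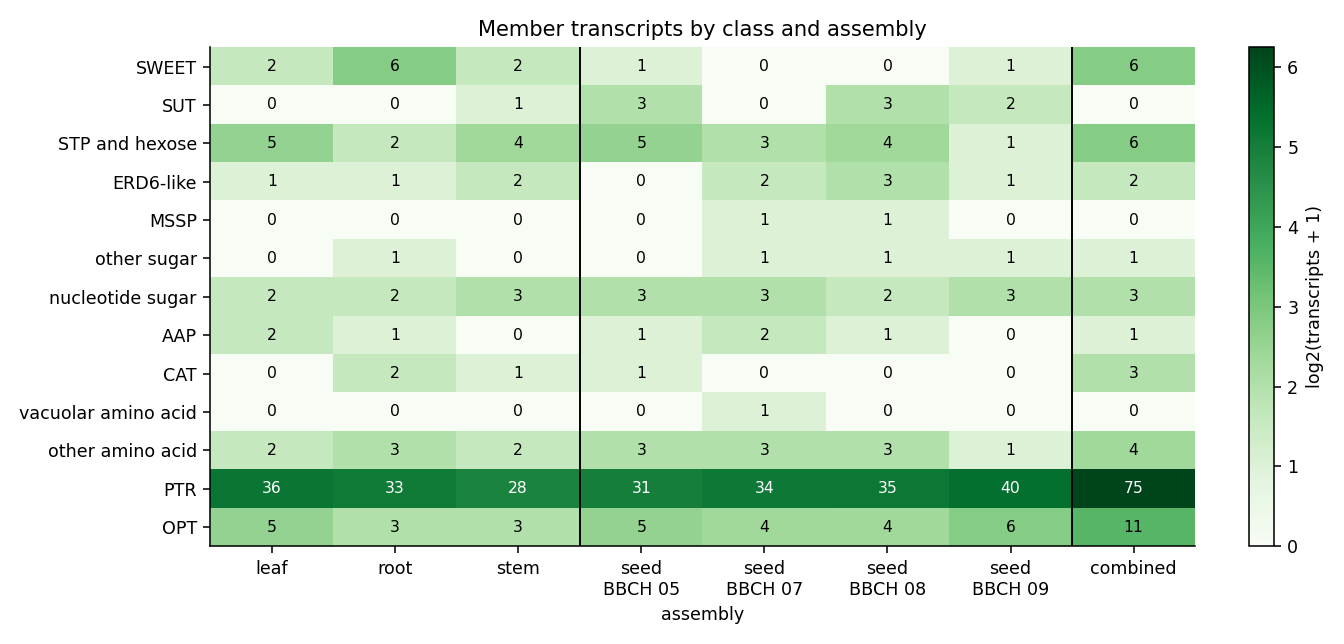
Member transcripts by class (rows) and assembly (columns), with organs left, seed stages in order and the combined assembly right. Colour is log2(transcripts + 1) and the number in each cell is the count. PTR has the largest count in every column. SWEET has 10 organ and 2 seed transcripts, and SUT 1 organ and 8 seed transcripts.

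SWEET was the only class of those in the plot of classes whose organ shares all lay above its seed shares. Among all descriptions with at least 10 transcripts, 5.66% of 1501 had that pattern. SWEET transcripts numbered 2 in leaf, 6 in root and 2 in stem, against 1, 0, 0 and 1 at BBCH 05, 07, 08 and 09. The ratio was 7.52 (1.64 to 34.5), on 10 organ and 2 seed transcripts, and leaving out each assembly it ranged between 5.34 without the root and 12 without BBCH 05. The interval held 1 without the root (0.976 to 29.2) and among peptides of at least 200 amino acids, where the ratio was 5.99 (0.666 to 53.8). A SWEET14 match in root had an e-value of only 0.067. With e-values of at most 1e-05 the SWEET ratio was 6.85 (1.47 to 31.9), and over distinct proteins it was 5.06 (1.05 to 24.45). SWEET16, whose Arabidopsis namesake moves sugars across the vacuolar membrane, gave 2 transcripts in leaf, 2 in root and 1 in stem, against 0 at every seed stage. All 5 matched the Triticum urartu protein M7Z8F5 at 91 to 92% similarity, with predicted peptides of 308 amino acids in both leaf and stem. A count of 0 among the 155348 annotated seed transcripts allows a share of up to 0.00193%, so presence below that level was not detectable.

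The other SWEET names were thinner. SWEET14 gave 2 transcripts in root and 1 in stem, against 1 at BBCH 05, 51 to 68% similar to their homologue M7Z309 and at most 164 amino acids long. SWEET13, whose maize namesakes export sucrose in the leaf, gave 1 in root, against 1 at BBCH 09. A further bidirectional sugar transporter without a number gave 1 in root, at 47% similarity the weakest by that measure of all members in the single assemblies.

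The separation of SWEET depended on which names were counted. Transcripts described as ruptured pollen grain 1, a name of a SWEET protein studied in Arabidopsis pollen, did not hold the words of the rule and numbered 0 in leaf, 1 in root and 1 in stem, against 2 at each of the 4 seed stages. This name was looked at after its values had been seen. Alone it had a ratio of 0.387 (0.0813 to 1.85), with all seed shares above all organ shares, as 7.26% of 1501 descriptions had. Counted with the other SWEET transcripts it brought the class to 2, 7 and 3 in leaf, root and stem, against 3, 2, 2 and 3 over the seed stages, a ratio of 1.82 (0.784 to 4.24) whose interval held 1.

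Sucrose carriers ran the other way on even fewer transcripts. SUT transcripts numbered 0 in leaf, 0 in root and 1 in stem, against 3, 0, 3 and 2 over the seed stages. The ratio was 0.217 (0.027 to 1.74), and with 0 at BBCH 07 the groups overlapped. SUT1, the main sucrose carrier of cereal phloem and grain, gave 0 transcripts in all 3 organs, against 2, 0, 1 and 2 over the seed stages. A count of 0 among the 96444 annotated organ transcripts allows a share of up to 0.00311%. All 5 SUT1 transcripts matched M7ZM16 of Triticum urartu at 94 to 99% similarity, but their peptides were only 100 to 163 amino acids long.

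A protein described as sucrose transporter, matched in the bamboo Bambusa oldhamii (B6RM84), gave 0 in the organs, against 1 at BBCH 05 and 2 at BBCH 08. The only SUT transcript of an organ was SUC3 in stem, at 305 amino acids the longest of the class. None of the 9 SUT transcripts carried the Gene Ontology (GO) term for sucrose transport. The 30 transcripts that did carry it all lacked an informative name, and numbered 4 in leaf, 4 in root and 2 in stem, against 8, 5, 3 and 4 over the seed stages. By that term the ratio was 0.798 (0.371 to 1.71).

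Hexose carriers were found in every assembly. STP and hexose transporters numbered 5 in leaf, 2 in root and 4 in stem, against 5, 3, 4 and 1 over the seed stages, a ratio of 1.42 (0.635 to 3.18). Among peptides of at least 200 amino acids the ratio was 0.865 (0.251 to 2.98). Sugar transport 5 led them with 3 in leaf, 1 in root and 2 in stem, against 4, 2, 1 and 1 over the seed stages. Its ratio was 1.26 (0.437 to 3.65), reached 1.98 without BBCH 05 and was 0.893 without the leaf. Sugar transport 14 gave 0 in leaf, 1 in root and 2 in stem, against 0, 0, 2 and 0 over the seed stages. Sugar transport 1 was met in leaf and at BBCH 08, and Sugar transport 7 in leaf and at BBCH 05, with 1 transcript each time.

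Vacuolar sugar carriers were sparse. ERD6-like carriers numbered 1 in leaf, 1 in root and 2 in stem, against 0, 2, 3 and 1 over the seed stages. ERD6-like 16 and ERD6-like 5 each gave 2 organ and 2 seed transcripts, while ERD6-like 6 gave 0 in the organs and 2 at BBCH 08. Monosaccharide-sensing 2, a tonoplast carrier in Arabidopsis, was absent from the organs and gave 1 transcript at BBCH 07 and 1 at BBCH 08. Unnumbered sugar transporters gave 1 in root, against 1 each at BBCH 07, 08 and 09.

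Carriers of nucleotide sugars, which feed cell wall and glycan synthesis in the Golgi, were caught by the same words and were evenly spread. They numbered 2 in leaf, 2 in root and 3 in stem, against 3, 3, 2 and 3 over the seed stages, a ratio of 1.06. The UDP-sugar transporter named after the mammalian SLC35A4 matched N1R1V4 exactly once in each of the 7 assemblies, with a peptide of 405 amino acids in 6 of them and 379 in leaf. With a median of 405 amino acids the class had the longest typical peptides of all.

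Amino acid carriers were few under the words used. Amino acid permeases numbered 2 in leaf, 1 in root and 0 in stem, against 1, 2, 1 and 0 over the seed stages, with a median peptide of 103 amino acids. They were grouped by that name alone, and whether each belongs to the AAP family was not tested. Among them were a match named amino acid permease yfnA in leaf and a green algal match of 58% similarity at BBCH 07. Cationic amino acid transporters, which carry lysine and arginine, gave 0 in leaf, 2 in root and 1 in stem, against 1 at BBCH 05 and 0 later. A vacuolar amino acid transporter occurred once, at BBCH 07, and no lysine histidine transporter was found in any assembly. The remaining amino acid transporters numbered 2, 3 and 2 in leaf, root and stem, against 3, 3, 3 and 1 over the seed stages.

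Among those, proton-coupled amino acid transporter 3 was met once in each organ, against 1, 2, 1 and 0 over the seed stages. Amino acid transporter-like gave 0 in leaf, 1 in root and 1 in stem, against 2, 1, 1 and 1, and all 7 matched the rice protein Q5ZDJ1, which carried the GO term lateral root morphogenesis. Those were the 7 transcripts of the single assemblies with that term. Both names overlapped between organs and seeds.

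The PTR class counted 36 in leaf, 33 in root and 28 in stem, against 31, 34, 35 and 40 over the seed stages. Its shares were 0.127% in leaf, 0.085% in root and 0.0958% in stem, against 0.0854%, 0.0851%, 0.0916% and 0.0978% over the seed stages. The ratio was 1.14 (0.878 to 1.48), and 1.01 without the leaf. The share at BBCH 09 (0.0718 to 0.133) overlapped that at BBCH 05 (0.0602 to 0.121), so the higher number late in germination did not exceed counting error.

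PTR2, a dipeptide and tripeptide carrier, gave the most transcripts of any name. It numbered 24 in leaf, 20 in root and 20 in stem, against 17, 16, 21 and 23 over the seed stages. These 141 transcripts matched 23 proteins, and the ratio was 1.38 (0.986 to 1.92). PTR1 numbered 8 in leaf, 9 in root and 6 in stem, against 9, 14, 11 and 11, a ratio of 0.83 (0.5 to 1.38) over 68 transcripts of 10 proteins. The ranges of both names overlapped between organs and seeds.

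PTR3-A and PTR5 moved with single assemblies. PTR3-A, which in Arabidopsis is known as a wound-induced relative, gave 0 in leaf, 2 in root and 2 in stem, against 3, 3, 1 and 3 over the seed stages, a ratio of 0.622 (0.193 to 2). PTR5 gave 4 in leaf, 2 in root and 0 in stem, against 1, 1, 1 and 3, a ratio of 1.69 (0.54 to 5.26). Without the stem the ratio of PTR3-A was 0.401 and that of PTR5 was 2.53, both then past 2-fold. Without the leaf the ratio of PTR3-A was 0.933, and PTR5 had too few transcripts left to be tested.

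Oligopeptide transporters numbered 5 in leaf, 3 in root and 3 in stem, against 5, 4, 4 and 6 over the seed stages, a ratio of 0.97 (0.46 to 2.05), and 1.49 (0.615 to 3.59) among peptides of at least 200 amino acids. OPT7 led with 3 in leaf, 2 in root and 1 in stem, against 3, 3, 2 and 5, a ratio of 0.768 (0.29 to 2.03). It was 0.516 without the leaf. The rice protein Q75LM0, listed as oligopeptide transporter expressed, was matched exactly once in every assembly. Its peptide had 756 amino acids in leaf, root and stem, against 251, 751, 734 and 756 over the seed stages. Of the single assemblies only leaf and stem held OPT4, with 1 transcript each.

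**Figure D3:**
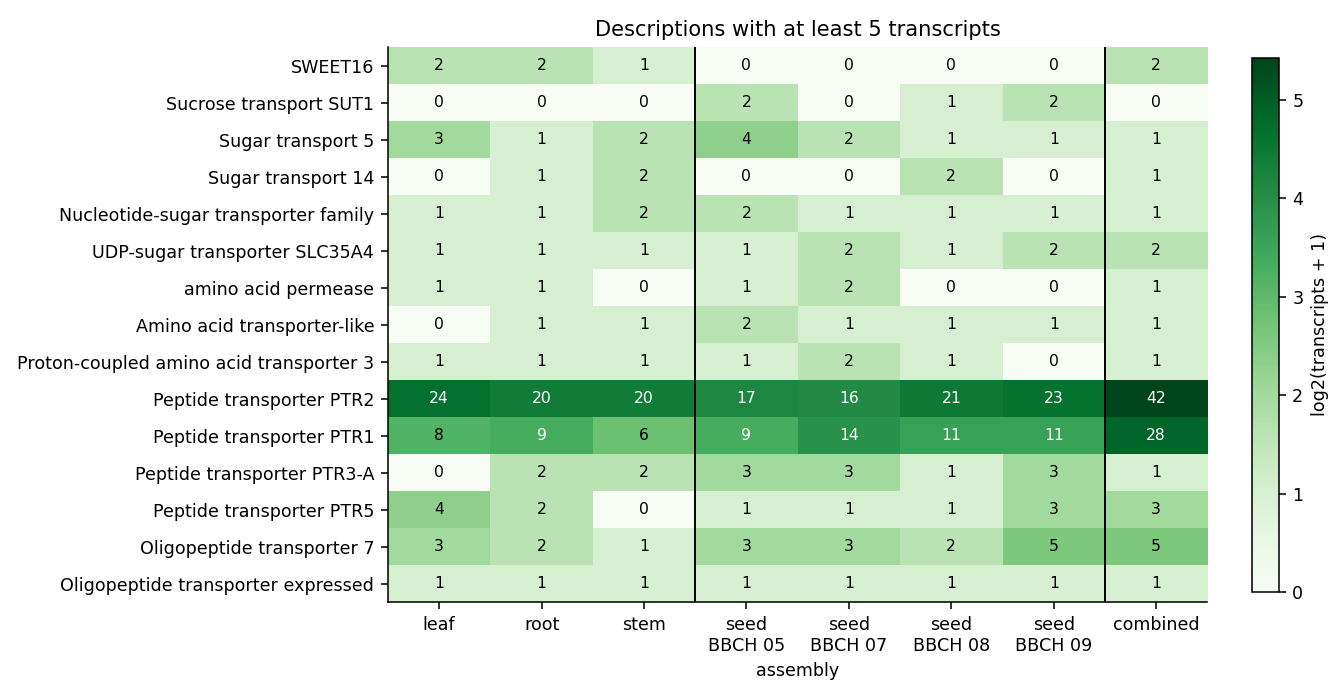
Transcripts of the 15 member descriptions with at least 5 over the single assemblies (rows) in each assembly (columns, organs left). Colour is log2(transcripts + 1) and cells give the count. SWEET16 is filled in the 3 organs and is 0 at the 4 seed stages, while SUT1 is 0 in the organs.

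Few carrier names had enough transcripts to be set against all names. Of the 6 member descriptions with at least 10 transcripts, 0 were at least 2-fold higher in organs, where 6.06% of 1501 descriptions were, and 0 were at least 2-fold higher in seeds, where 10.9% were. Likewise 0 of 6 had organ shares wholly above seed shares (5.66% of all) and 0 had seed shares wholly above (7.26%). The median ratio was 1.05 over the 6 members and 0.978 over the 1501. With a minimum of 5 transcripts, 2 of 15 members were 2-fold higher in organs (11.2% of 3280 descriptions), namely SWEET16 and Sugar transport 14 at 2.4. By the same minimum 1 of 15 was 2-fold higher in seeds (13.8%), namely SUT1.

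The matched proteins were also compared by presence. Of the 87 member proteins 12 were matched in all 7 assemblies (13.8%, where 15.8% of 57115 proteins were). Of these 7 were PTR, 2 OPT, 2 nucleotide sugar carriers and 1 STP, and no SWEET, SUT or amino acid carrier was among them. Members matched in organs alone numbered 20 (23%, where 16.8% of all were), and those matched in seeds alone 21 (24.1%, where 30.7% were). In 1 assembly alone 29 were met (33.3%, where 34.6% were). SWEET16 was the only member found in all 3 organs and at no seed stage, a pattern of 0.564% of all proteins, and of 24 of the 3320 proteins with exactly 5 transcripts (0.723%). Found at 3 or more seed stages and in no organ were 3 members (3.45%, where 3.86% of all were), which were SUT1, the PTR2 protein M7YYT9 and the PTR5 protein M8C3J4. SUT1 had 5 transcripts, and among the 3320 proteins with exactly 5 that pattern was met in 276 (8.31%).

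The most often matched proteins were peptide carriers. M8AMI9 (PTR2, Triticum urartu) gave 3, 4 and 3 transcripts in leaf, root and stem, against 1, 3, 3 and 4 over the seed stages. R7WD37 (PTR2, Aegilops tauschii) gave 5, 4 and 1 in leaf, root and stem, against 2, 3, 2 and 4. Both summed to 21 transcripts, and both overlapped between organs and seeds. M7YDL5 (OPT7) gave 3, 2 and 1 in leaf, root and stem, against 3, 3, 1 and 4. M8CE35 (PTR1) gave 2, 3 and 0 in the organs, against 2, 3, 3 and 2. At 13 transcripts M8C3C2 (PTR1) and R7W424 (PTR3-A) tied, and M8C3C2 reached 5 at BBCH 07 alone.

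Several transcripts of 1 protein were often pieces of different length. M8AMI9 was covered by a peptide of 588 amino acids in root and 594 in stem and, at BBCH 05, by a single peptide of 612, beside others of 100 to 241 in those organs. At BBCH 09 its 4 peptides were 207 to 441 amino acids long. R7WD37 gave 5 peptides of 104 to 302 amino acids in leaf, against 574 for the longest at BBCH 05. M7YK07, a PTR2 protein, gave 3 transcripts in leaf and 0 elsewhere in the single assemblies. It was singled out after its values had been seen. A transcript count for such a protein can hold pieces of 1 gene, alleles of the pooled plants or related genes, which the counts do not separate.

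The leaf, with the most members by share, also had the shortest ones. Median member length was 153 amino acids in leaf, 243 in root and 226 in stem, against 171, 172.5, 187 and 198.5 over the seed stages. For all annotated transcripts the medians were 194, 201 and 232 in leaf, root and stem, against 200, 175, 183 and 188. Peptides of at least 400 amino acids made up 10.9% of members in leaf, 27.8% in root and 28.3% in stem, against 17%, 24.1%, 14% and 16.1% over the seed stages. Among peptides of at least 200 amino acids the leaf share was 0.16% (22 members) and the root share 0.174% (34 members), so the leaf was no longer on top. The part of peptide length in the leaf share was not tested.

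**Figure D4:**
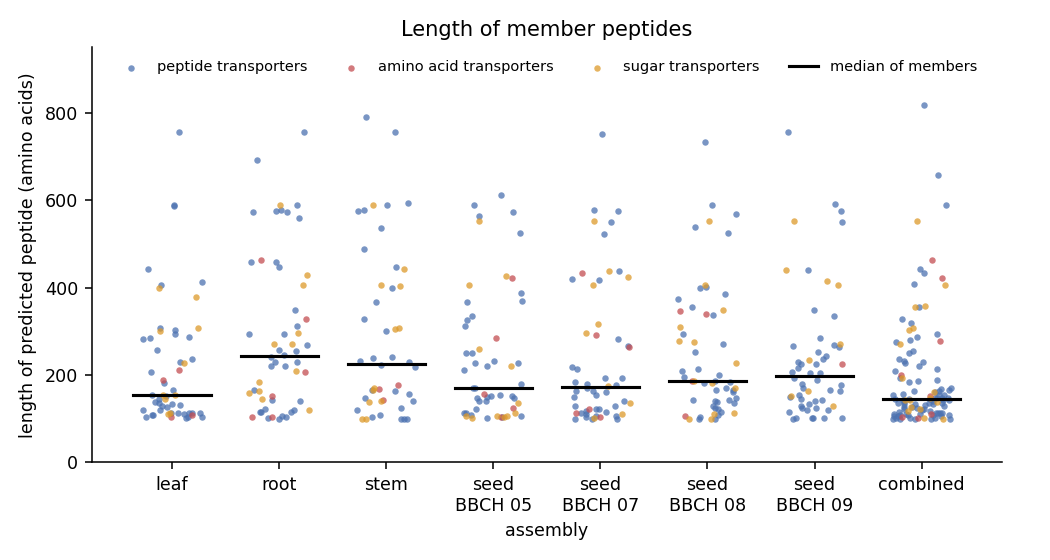
Length of each member peptide in amino acids (y axis) by assembly (x axis), coloured by cargo, with the median of all members as a black line. Leaf has the lowest median of the single assemblies at 153, root the highest at 243, and the combined assembly has 145.

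Over the 7 assemblies the members resembled other transcripts in length and matched their homologues more closely. The median member peptide was 187 amino acids long (quartiles 125.5 and 327), against 193 for all. The median similarity to the homologue was 90%, against 86% for all. Homologues came mostly from the wheat relatives Aegilops tauschii (203 members) and Triticum urartu (134), together 89.9% of members, against 26.6% of all annotated transcripts. Members had to hold a carrier name, while a mean of 73.1% of annotated transcripts in the organs and 72.9% in the seeds lacked an informative name. The contrasts in similarity and species are therefore not like for like, and a comparison with named transcripts alone was not made. Of the members 98.4% had an e-value of at most 1e-10. The weakest match inside the limit was Peptide transporter 4 at BBCH 05 with 0.089, then an amino acid transporter in root with 0.072 and SWEET14 in root with 0.067. Just outside lay a sucrose transport protein in stem with 0.4 and Monosaccharide-sensing 2 in stem with 0.44, among 15 transcripts that held the words but missed the limit.

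GO terms for sugar and for amino acid transport reached many more transcripts than the names did. The term for oligopeptide transport reached fewer, 223 against 267 peptide carriers by name. Terms for sugar transport were carried by 46 transcripts in leaf, 60 in root and 44 in stem, against 46, 48, 49 and 55 over the seed stages, a ratio of 1.22 (0.987 to 1.51). Of these 348 transcripts 58 were members (16.7%) and 261 (75%) had no informative name. Amino acid transport terms were carried by 39, 50 and 40 in leaf, root and stem, against 49, 64, 56 and 49, a ratio of 0.957 (0.768 to 1.19). Only 11 of these 347 were members (3.17%), and names outside carriers, such as importin subunit alpha, were among the rest. Oligopeptide transport was carried by 28, 30 and 28, against 31, 37, 31 and 38, a ratio of 1.03 (0.784 to 1.35), with 68 members among 223. By these terms peptide transport covered the fewest transcripts, while by names peptide carriers were the most. The term sets were of unlike breadth, with several terms joined for sugar and only oligopeptide transport for peptides. That term stood on 68 of 237 PTR members and 0 of 30 OPT members. The order of the cargoes by terms is therefore not like for like with the order by names.

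Joined, these terms gave 918 transcripts and a ratio of 1.07 (0.936 to 1.22). The 137 of them that were members had a ratio of 1.6 (1.14 to 2.24), and the 781 outside had 0.994 (0.859 to 1.15). Those 137 are only a part of the 375 members, picked by terms added after the data were seen. All 375 members had a ratio of 1.15 (0.937 to 1.42), whose interval held 1. Among the carriers outside the words, an uncharacterized amino-acid permease, spelled with a hyphen, gave 3 in leaf, 4 in root and 0 in stem, against 1, 1, 2 and 4 over the seed stages. A nitrate chlorate transporter, of the family that PTR belongs to, gave 1, 2 and 1, against 2, 2, 2 and 1.

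**Figure D5:**
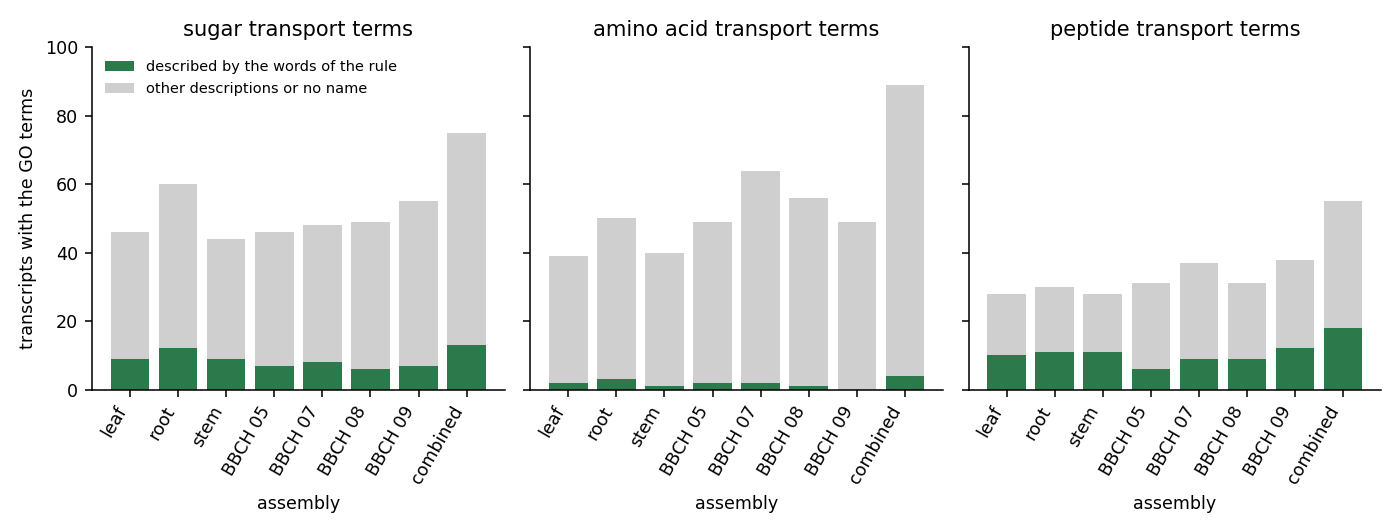
Transcripts carrying GO terms of sugar, amino acid or peptide transport (y axis) in each assembly (x axis), split into those described by the words of the rule (green) and all others (grey). Members are the smaller part of every bar: 58 of 348 for sugar, 11 of 347 for amino acids and 68 of 223 for peptides.

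The terms that members carried were partly at odds with their names. Of the 375 members 97.1% carried integral component of membrane, against 16.9% of all annotated transcripts. All 68 members with oligopeptide transport were PTR and 0 were OPT. Terms for bone mineralization, a process of animals, stood on 127 members (33.9%, against 11.3% of all), among them 96 of 203 with a homologue in Aegilops tauschii. Protein kinase activity stood on 11 members, all of them PTR2 transcripts matched to M8AR92. Nucleic acid binding stood on 4 members, all of them SWEET14 transcripts matched to M7Z309.

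Enzymes and pumps around the carriers were also counted by name. Enzymes that make or use sucrose and hexoses numbered 32 in leaf, 33 in root and 28 in stem, against 38, 47, 48 and 39 over the seed stages, a ratio of 0.883 (0.685 to 1.14), and 0 of their 6 descriptions passed 2-fold in either direction, where 6.06% of all descriptions were higher in organs and 10.9% in seeds. Hexokinase numbered 10, 11 and 13 in leaf, root and stem, against 19, 18, 17 and 16, a ratio of 0.796. Sucrose synthase, which splits sucrose in sink tissues, numbered 12, 10 and 5, against 7, 15, 18 and 12, a ratio of 0.851. Proton pumps, which build the gradient most of these carriers use, numbered 12, 21 and 9, against 16, 12, 12 and 13, a ratio of 1.23 (0.821 to 1.86).

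Of the 4 pump descriptions tested, 1 was at least 2-fold higher in seeds (10.9% of all were), the vacuolar proton pyrophosphatase with 0, 2 and 0 in leaf, root and stem, against 1, 1, 4 and 2. Carriers of polyols, xylose, nitrate and metal chelates numbered 11, 19 and 8, against 10, 16, 10 and 9, a ratio of 1.32 (0.858 to 2.05). Of their 2 descriptions tested, 1 was at least 2-fold higher in organs (6.06% of all were), nitrate transporter with 3 in leaf, 10 in root and 2 in stem, against 2, 3, 2 and 3 over the seed stages, a ratio of 2.25. The root stood apart from every other single assembly for that name, and by the paper it also had the most surviving reads of them.

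The combined assembly held 112 members, a share of 0.168% (0.14 to 0.202). It matched 63 member proteins, of which 52 were also met in the single assemblies and 11 were not. The single assemblies held 35 member proteins that it lacked, with 67 transcripts. No SUT was among its members, where the single assemblies held 9, and SWEET15, Hexose transporter and OPT5 occurred in it alone. PTR1 numbered 28 in it, where no single assembly exceeded 14. Its members had a median length of 145 amino acids and 8.93% reached 400. Redundancy, the share of members beyond 1 per protein, was 43.8% in it (38.6% over all its annotated transcripts), and in the single assemblies lay between 19.6% in stem and 35.2% at BBCH 07.

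The labels could be checked only in part. Annotated transcripts numbered 28412 to 38809 in the organs, against 36287 to 40902 at the seed stages, and those without an informative name made up 73.1% in the organs, against 72.9% in the seeds. Seed storage globulins numbered 4, 7 and 3 in leaf, root and stem, against 17, 14, 13 and 9, and oleosins 0, 2 and 0, against 3 at each seed stage. Late embryogenesis abundant proteins, a seed marker too, numbered 3, 3 and 0, against 2, 1, 2 and 1, a ratio of 1.55 (0.498 to 4.85) towards the organs. Chlorophyll a-b binding proteins numbered 28 in leaf, 18 in root and 15 in stem, against 15, 22, 16 and 19 over the seed stages. Their share was highest in leaf at 0.0986%, against 0.0464% in root, 0.0513% in stem and 0.0413% to 0.0551% at the seed stages, so the marker set leaf apart but was also met in root. No Casparian strip membrane protein, a root marker, was met by name in any assembly. Of the members in the single assemblies 1, an amino acid permease at BBCH 07, had its homologue in a green alga, and the combined assembly held 2 such members.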

How the data were processed

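The deposited files list, for 1 library per condition and for the combined assembly, each predicted peptide with its best plant homologue. Quality clipping by the authors used Trimmomatic (named in the submitters' notes), and read depth was evened by k-mers. From the Trinity contigs they took only the longest form of each gene, joined similar contigs, translated the longest reading frame and searched the peptides with blastp against UniProtKB plant proteins. GO terms came from Blast2GO. Evened depth, merging and fragmented contigs all affect a transcript count. The e-value, deposited by the authors as a score, and the mean similarity, deposited in percent, were used as given. Peptide length is in amino acids. Read depth per library is not in the tables, so precision follows the number of annotated transcripts. The paper lists more surviving paired reads for root than for any other single library. The part of read number in the root counts was not tested.

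A transcript counted as annotated up to an e-value of 0.1, and members were found by words. Members and lists were chosen with earlier results of these data known. Classes followed the words of each name, first match counting; because names such as Sugar transport 5 lack the word "protein", that word was made optional. Named are the 3 leading descriptions of each class, descriptions past 2-fold without overlap, descriptions of at least 3 transcripts in 1 assembly alone and the 5 leading proteins. Some others were named to account for every class. Ratios used equal weight per library. The number of per-sample columns not used was 0. Alternatives were stricter e-values, 1 transcript per Trinity gene, distinct proteins, peptides of at least 200 amino acids, other denominators, other limits, leaving out each library, and, added after the data were seen, GO terms, leaving out green algae and counting ruptured pollen grain 1. Tables were computed in pandas 2.3.3 and SciPy 1.17.1 under Python 3.11.15 (NumPy 2.4.6), and plots drawn in matplotlib 3.10.9. No sequences are in the tables used here, so none are printed.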

Additional observations from a re-analysis of the deposited data

How the results depend on the processing

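The organ to seed ratio of the member share stayed between 1.15 and 1.2 under stricter e-values, 1 transcript per Trinity gene, distinct proteins, longer peptides, informative names, and without green algae or nucleotide sugar carriers. Some of these settings removed few members, since 369 of 375 had an e-value of at most 1e-10 and 1 was green algal. The ratio was 0.939 on numbers of transcripts not divided by assembly size, and 1.05 to 1.24 leaving out each assembly in turn. Its interval held 1 each time. The count of member descriptions past 2-fold, 0 of 6, became 3 of 15 with a minimum of 5 transcripts, and was 0 to 2 leaving out each assembly, the 2 being without the stem. Proteins matched in every assembly numbered 12, and 12 to 16 leaving out 1 assembly. Over transcripts with an informative name, the member share was 0.758% in leaf, 0.52% in root and 0.646% in stem, against 0.577%, 0.524%, 0.582% and 0.517% at BBCH 05, 07, 08 and 09, and 0.602% in the combined assembly, since the denominator holds fewer transcripts. In the combined assembly it was 0.12% among peptides of at least 200 amino acids. In the main setting 0 of 6 descriptions were called, so there was no called value whose sign could turn. Where a class had 0 transcripts in the organs or in the seeds under an alternative, as for SUT without the stem or among peptides of at least 200 amino acids, no ratio could be given. No paired analysis was possible because each condition had 1 library here and the ratios come from no test. Among peptides of at least 200 amino acids the class ratios of STP, ERD6-like carriers and the remaining amino acid transporters fell below 1, to 0.865, 0.404 and 0.587, and that of OPT was above 1, at 1.49; all these intervals held 1. Few transcripts limit the small classes: SWEET has 12, SUT 9, AAP 7, CAT 4 and MSSP 2.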
